A study of Mus musculus with 4 samples.

Results

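Ribosomal protein retrocopies were followed in long-term hematopoietic stem cells (LT-HSCs) of 4 mouse genotypes. They were chosen by symbol alone: a ribosomal protein gene name followed by -ps and an optional number, or by rt. The rule found 223 of 26687 gene symbols in the count tables. The reference annotation (GENCODE mouse release M21, GRCm38) called 211 of them processed pseudogenes, 6 transcribed processed pseudogenes and 6 protein coding genes. Aligned to the mRNAs of ribosomal protein genes, 219 of the 223 matched best to the gene in their symbol.

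A retrocopy is made when the machinery of a LINE-1 element copies a spliced mRNA back into the genome. The new copy lacks introns, usually leaves the promoter behind, and drifts away from its parent by mutation. Ribosomal protein mRNAs are short and abundant and have given rise to more such copies than most gene families. A young copy can be nearly identical to its parent, so a short sequencing read does not always tell the copy and the parent apart. The parents encode the proteins of the small (Rps) and large (Rpl) ribosomal subunits.

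The libraries were NPMc+ (mutant nucleophosmin that is held in the cytoplasm), Flt3-ITD (an internal tandem duplication in the receptor tyrosine kinase Flt3), NPMc+/Flt3-ITD (both) and Mx, the MxCRE control, a strain with Cre recombinase under the interferon-responsive Mx promoter. All mice were labelled C57BL/6 and were 8 to 11 weeks old, and whether the mutant mice also carried MxCRE is not given in the sources used here. Cells were sorted from crushed limb bones and sternum and put through the 10x Genomics Single Cell 3' kit, version 2. Each genotype had 1 library, so no variance between animals could be estimated and no p-values were computed. Intervals below are exact 95% intervals that cover counting error only. The series names Mx as the reference.

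After cells with under 1000 UMIs, under 500 genes or over 10.0% mitochondrial UMIs were left out, 2375 NPMc+, 2393 Flt3-ITD, 3321 NPMc+/Flt3-ITD and 2519 Mx cells remained, with median depths of 9466, 8661, 7323 and 8094 UMIs. Levels are the UMIs summed over a library's kept cells, per 1000000 UMIs of that library (CPM). The 11 LT-HSC markers were all listed and summed to 1098, 715, 633 and 1350 CPM in NPMc+, Flt3-ITD, NPMc+/Flt3-ITD and Mx, while 5 multipotent progenitor markers summed to 442, 753, 1758 and 494 CPM. Among other lineages, 8 B cell markers summed to 1289 CPM in NPMc+ and 199 CPM in NPMc+/Flt3-ITD, against 49.7 CPM in Mx, with Ms4a1 at 0 in Flt3-ITD and Mx. The 6 megakaryocyte markers summed to 956.5 CPM in NPMc+ against 263.5 CPM in Mx, with Gp6 at 0 in both. The 8 T cell markers reached 867 CPM in NPMc+/Flt3-ITD against 88.6 CPM in Mx. The mast or basophil list, with 5 of 6 genes listed, reached 656 CPM in NPMc+/Flt3-ITD, where Prss34 was at 0, against 16.9 CPM in Mx, where Mcpt8 was at 0. These cell compositions differed along with the retrocopies, and their part in the results was not tested. Between 71 and 282 cells a library were left once every cell with 3 or more UMIs of other-lineage markers was removed, too few to stand for the sort, so values from them are given only as a bound on the processing. Over all pairs of libraries, 160.0 barcodes were shared, 52 of them between kept cells.

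Sequence comes before the values, because it limits what a count of a retrocopy can mean. The 37 retrocopies that reached 20 CPM in at least 1 library were 95.8% to 100% identical to their parents over the aligned bases, and 9 of them were identical throughout. A few sets are shown as stretches of 90 bases of the parent's coding sequence with the same stretch of each copy, from GENCODE M21 transcripts on GRCm38. Capitals in a copy mark bases that differ from the parent. Within each parent the stretch was the one with most differences over its copies. The parents' stretches are spliced from 2 or 3 exons and lie within chr3:90212728-90212997 (Rps27, minus strand), chrX:134586167-134587455 (Rpl36a, plus), chr17:27630481-27632286 (Rps10, minus) and chr4:86856342-86856802 (Rps6, minus).

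The Rps27 set is shown because its copy had the highest level of any retrocopy in Mx and did not differ from the parent anywhere in the 341 aligned bases. The stretch is bases 163 to 252 of the coding sequence, which in Rps27rt lie at chr9:114982456-114982545 on the minus strand.
Rps27: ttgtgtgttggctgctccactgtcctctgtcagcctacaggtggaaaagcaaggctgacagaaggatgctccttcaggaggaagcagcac
Rps27rt: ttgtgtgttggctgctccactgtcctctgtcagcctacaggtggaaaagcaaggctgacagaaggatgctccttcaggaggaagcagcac

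The Rpl36a set holds the copy furthest below Mx and, beside it, a copy with no difference from the parent. Coding bases 93 to 182 lie at chr14:98994119-98994208 on the minus strand in Rpl36a-ps1 and at chr3:145879112-145879201 on the plus strand in Rpl36a-ps2, with 5 and 0 differences.
Rpl36a: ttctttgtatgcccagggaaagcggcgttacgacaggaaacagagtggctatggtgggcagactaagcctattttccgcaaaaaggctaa
Rpl36a-ps1: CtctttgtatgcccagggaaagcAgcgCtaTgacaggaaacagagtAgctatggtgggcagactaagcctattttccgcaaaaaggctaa
Rpl36a-ps2: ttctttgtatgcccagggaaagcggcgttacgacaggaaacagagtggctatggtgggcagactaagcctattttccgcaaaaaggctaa

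The Rps10 set shows copies of one parent whose levels moved apart. At base 46 of the stretch both copies carry the same change. They differ from each other at the other marked positions, so reads over those tell them apart. Of all windows of 98 bases, 81.9% in Rps10-ps1 and 26.1% in Rps10-ps2 occurred in no other annotated transcript. Coding bases 393 to 482 lie at chr3:95622670-95622759 on the plus strand in Rps10-ps1 and at chr16:20822159-20822248 on the minus strand in Rps10-ps2, with 2 and 5 differences.
Rps10: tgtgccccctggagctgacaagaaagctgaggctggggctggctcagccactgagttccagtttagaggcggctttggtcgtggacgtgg
Rps10-ps1: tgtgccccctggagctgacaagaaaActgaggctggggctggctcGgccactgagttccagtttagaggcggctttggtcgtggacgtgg
Rps10-ps2: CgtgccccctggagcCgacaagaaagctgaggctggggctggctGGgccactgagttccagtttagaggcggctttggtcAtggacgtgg

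Of the retrocopies at 20 CPM in any library, the Rps6 set holds both at least 1.5-fold above Mx in all 3 mutant libraries. Coding bases 64 to 153 lie at chr2:75191670-75191759 in Rps6-ps4 and at chr9:53690131-53690220 in Rps6-ps3, both on the minus strand, with 0 and 4 differences.
Rps6: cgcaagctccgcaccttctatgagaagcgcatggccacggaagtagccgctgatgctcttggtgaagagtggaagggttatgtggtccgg
Rps6-ps4: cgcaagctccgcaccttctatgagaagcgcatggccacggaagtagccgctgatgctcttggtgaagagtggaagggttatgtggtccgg
Rps6-ps3: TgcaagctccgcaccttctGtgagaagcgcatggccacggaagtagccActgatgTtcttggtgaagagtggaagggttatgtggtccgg

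Most retrocopies were close to undetected. Of the 223, 114 stayed under 1 CPM in every library, 46 had their highest level between 1 and 5 CPM, 26 between 5 and 20 CPM, and 37 reached 20 CPM. The parents with most copies among the 223, Rpl31 with 17 and Rpl21 with 15, had 0 and 1 copies among the 37. The 37 were 20 copies of small-subunit and 17 of large-subunit genes, on 17 chromosomes, from 32 parents. They comprised 30 processed pseudogenes, 3 transcribed processed pseudogenes and 4 annotated as protein coding. The highest below the limit was Rpl17-ps4, with 19.2, 16.01, 4.82 and 17.9 CPM in NPMc+, Flt3-ITD, NPMc+/Flt3-ITD and Mx. Next came Rpl7-ps7, with 16.9, 17.6 and 16.8 CPM in the mutants, against 9.12 in Mx, and Rpl13-ps3, with 14.6, 17.5 and 6.86 CPM, against 8.93 in Mx. Rpl10-ps6 had 15.6, 13.4 and 13.6 CPM, against 7.69 in Mx, and Rps2-ps5 had 8.78, 13.3 and 13.1 CPM, against 6.21 in Mx. Rpl7-ps7, Rpl10-ps6 and Rps2-ps5 were thus above Mx in all 3 mutants.

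Summed over all 223, retrocopies took 5508 CPM in NPMc+, 5829 CPM in Flt3-ITD, 2845 CPM in NPMc+/Flt3-ITD and 8462 CPM in Mx. The 83 ribosomal protein genes took 297535, 293684, 212187 and 313421 CPM in the same libraries. The 223 thus made up 1.82%, 1.95%, 1.32% and 2.63% of their own UMIs and those of the 83 genes together. This share was lowest in the double mutant and highest in Mx. Any retrocopy under a symbol outside the rule was not counted.

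Counted member by member, with at least 20 CPM in either library of a pair and a 2-fold difference as the limit, retrocopies were more often lower in the mutants. In NPMc+ against Mx, 12 of 35 were at least 2-fold lower and 1 at least 2-fold higher, where 2.23% of all 6588 genes at that level were lower and 1.78% higher. In Flt3-ITD against Mx, 14 of 36 were lower and 2 higher, against 1.74% and 2.38% of all genes. In NPMc+/Flt3-ITD against Mx, 29 of 33 were lower and 0 higher, against 5.74% and 5.42% of all genes. The median log2 ratios of the retrocopies were -0.65, -0.50 and -2.92, and those of all genes -0.01, -0.06 and 0.21. The single-mutant medians depended on the floor. At 5 CPM they were -0.25 in NPMc+, against -0.08 for all genes, and -0.12 in Flt3-ITD, against -0.11 for all genes, nearly the same. At 50 CPM they were -0.86 and -1.02. Only a retrocopy that reached the limit in either library was counted, and all 3 comparisons share the Mx library.

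The double mutant was also set against each single mutant, which uses the same NPMc+/Flt3-ITD library as the comparison with Mx. In NPMc+/Flt3-ITD against NPMc+, 24 of 31 retrocopies were at least 2-fold lower and 0 higher, with 4.59% and 5.51% of all genes. In NPMc+/Flt3-ITD against Flt3-ITD, 27 of 33 were lower and 0 higher, with 4.46% and 4.28% of all genes.

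**Figure D1:**
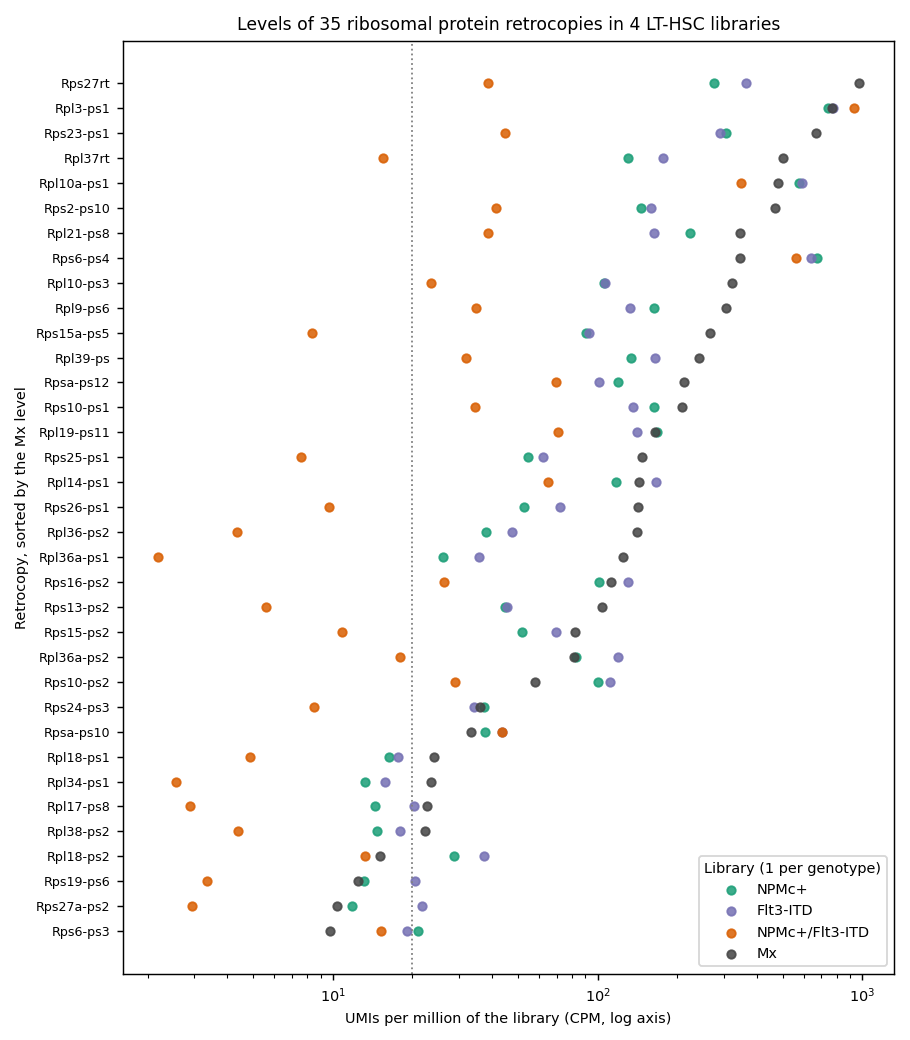
Levels of 35 of the retrocopies that reached 20 CPM (rows, sorted by their level in Mx) in the 4 libraries, in CPM on a log axis, 1 point per library and the dotted line at 20 CPM. The NPMc+/Flt3-ITD point lies furthest left in 31 of the 35 rows, and the Mx point furthest right in 21.

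Among the 37, 22 were highest in Mx, and each of these 22 had both single mutants between Mx and the double mutant. The split was even, with 11 small-subunit and 11 large-subunit copies. These groups were read off the levels themselves and are a description.

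The small-subunit copies of this kind began with Rps27rt, a copy of the gene for eS27. It had 275 CPM in NPMc+, 363 in Flt3-ITD and 38.5 in the double mutant, against 974 in Mx. Rps23-ps1, from a gene whose protein sits at the decoding centre, had 306, 291 and 44.5 CPM in these 3 mutants, against 669 in Mx. The double mutant was 25.3-fold lower than Mx for Rps27rt (23.8 to 27.0) and 15.0-fold lower for Rps23-ps1 (14.2 to 15.95). Both single mutants lay 2- to 4-fold below Mx for these copies.

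Rps2-ps10, a transcribed processed pseudogene, had 146, 159 and 41.5 CPM in NPMc+, Flt3-ITD and NPMc+/Flt3-ITD, against 467 in Mx. Rps15a-ps5 had 90.8, 92.98 and 8.38 CPM in the mutants, against 266 in Mx. The fold below Mx in the double mutant differed widely between these copies, at 11.3 and 31.7.

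Rpsa-ps12, a copy of the gene for the small-subunit protein also known as laminin receptor, had 119.6, 101 and 69.9 CPM, against 213 in Mx. Rps10-ps1 had 164, 137 and 34.4 CPM, against 209 in Mx. Rps25-ps1 had 54.5, 62.4 and 7.60 CPM, against 147 in Mx. Rpsa-ps12 was the least reduced of the small-subunit copies named here as highest in Mx, at 3.05-fold in the double mutant.

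Rps26-ps1 had 52.7, 72.0 and 9.68 CPM, against 142 in Mx. Rps13-ps2, which is identical to Rps13 over its whole annotated length, had 44.7, 45.5 and 5.60 CPM, against 104 in Mx. Rps15-ps2 had 51.8, 69.6 and 10.9 CPM, against 82.4 in Mx. For Rps13-ps2 the intervals of the single mutants overlapped, at 2.33-fold below Mx in NPMc+ (2.17 to 2.505) and 2.29-fold in Flt3-ITD (2.12 to 2.47).

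Among large-subunit copies, Rpl37rt had 131, 177 and 15.5 CPM in NPMc+, Flt3-ITD and NPMc+/Flt3-ITD, against 501 in Mx. Rpl10-ps3, a copy of the gene for a protein that joins the large subunit late in its assembly, had 106, 107 and 23.5 CPM, against 321 in Mx. Rpl21-ps8 had 224, 163 and 38.5 CPM, against 345 in Mx. In the double mutant these stood 32.3-, 13.7- and 8.97-fold below Mx.

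Rpl9-ps6 had 163, 133 and 34.9 CPM, against 306 in Mx. Rpl39-ps, from the gene of a small protein that lines the exit tunnel, had 134, 165 and 31.9 CPM, against 242 in Mx. Rpl36-ps2 had 38.0, 47.6 and 4.34 CPM, against 140.4 in Mx. Rpl36a-ps1 had the widest gap of all 37, with 26.1, 35.5 and 2.19 CPM, against 124 in Mx. It was 56.9-fold lower in NPMc+/Flt3-ITD than in Mx (44.0 to 75.0), resting on 59 and 2607 UMIs, and 4.76-fold lower in NPMc+ (4.37 to 5.20).

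The other 4 copies highest in Mx were all low. Rpl18-ps1 had 16.3, 17.7 and 4.86 CPM, against 24.1 in Mx. Rpl34-ps1 had 13.3, 15.7 and 2.56 CPM, against 23.5 in Mx, and Rpl17-ps8 had 14.5, 20.3 and 2.89 CPM, against 22.7 in Mx. Rpl38-ps2 had 14.6, 17.97 and 4.38 CPM, against 22.2 in Mx. Flt3-ITD and Mx did not differ beyond counting error for Rpl17-ps8 (log2 ratio -0.16, -0.35 to 0.03).

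Another 6 copies had values above Mx in both single mutants and below it in the double mutant, but for 4 of them at least 1 of these differences was within counting error. Rpl10a-ps1 had 575, 589 and 349 CPM in NPMc+, Flt3-ITD and NPMc+/Flt3-ITD, against 478 in Mx. Rps10-ps2 had 100.5, 111 and 28.9 CPM, against 58.2 in Mx. Rpl36a-ps2 had 82.7, 119 and 18.02 CPM, against 81.6 in Mx. For Rpl36a-ps2, NPMc+ and Mx did not differ beyond counting error (log2 ratio 0.02, -0.07 to 0.11).

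Rpl18-ps2 had 28.6, 37.4 and 13.2 CPM, against 15.0 in Mx. Rps27a-ps2, from a gene that encodes ubiquitin fused to a ribosomal protein, had 11.8, 21.8 and 2.93 CPM, against 10.4 in Mx. Rps19-ps6 had 13.1, 20.4 and 3.34 CPM, against 12.4 in Mx. NPMc+ and Mx did not differ beyond counting error for Rps19-ps6 (log2 ratio 0.08, -0.16 to 0.32) or Rps27a-ps2 (0.19, -0.07 to 0.45), nor did the double mutant and Mx for Rpl18-ps2 (-0.18, -0.41 to 0.04). A level at least 1.5-fold above Mx in NPMc+ and at least 1.5-fold lower in the double mutant than in Flt3-ITD, both beyond counting error, was found for 2 of the 37 copies and for 1% of all 7090 genes at 20 CPM in any library. The like pattern with the single mutants exchanged was found for 4 of the 37 copies and for 0.832% of these genes. Of these copies, Rps19-ps6 and Rps27a-ps2 reached 20 CPM only in Flt3-ITD, the library in which they were higher. Rpl18-ps2 and Rps27a-ps2 were the 2 copies at least 2-fold higher in Flt3-ITD than in Mx, at 2.49-fold (2.18 to 2.84) and 2.10-fold (1.79 to 2.48).

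Among the 37, 3 copies stood above Mx in all 3 mutants. Rps6-ps4, a copy of the gene for the S6 kinase substrate, had 672, 639 and 564 CPM, against 344 in Mx. Rps6-ps3 had 21.0, 19.01 and 15.2 CPM, against 9.74 in Mx. Rpsa-ps10 had 37.5, 43.7 and 43.5 CPM, against 33.3 in Mx. Rps6-ps3 was the 1 copy of the 37 at least 2-fold higher in NPMc+ than in Mx, at 2.15-fold (1.83 to 2.55), and Rps6-ps4 lay just under the limit at 1.95-fold (1.90 to 2.01). Rps6-ps3 reached 20 CPM only in NPMc+, the library in which it was called higher.

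The remaining 6 fell in none of these orders. Rpl3-ps1, from the gene of a protein near the peptidyl transferase centre, had 744, 775 and 929 CPM, against 768 in Mx, and was the 1 copy highest in the double mutant. Rpl19-ps11 had 168, 141 and 70.7 CPM, against 164 in Mx, and Rpl14-ps1 had 118, 166 and 65.0 CPM, against 143 in Mx. Rps16-ps2 had 101 CPM in NPMc+, 131 in Flt3-ITD and 26.3 in the double mutant, against 112 in Mx. Rps24-ps3 had 37.2, 34.2 and 8.49 CPM, against 36.05 in Mx. All of these but Rpl3-ps1 were at least 2-fold below Mx in the double mutant.

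The parents differed from Mx less than their copies did, with median log2 ratios of -0.04 in NPMc+, -0.09 in Flt3-ITD and -0.85 in the double mutant. Of the 32 parents, 0 were at least 2-fold higher or lower in NPMc+ or in Flt3-ITD against Mx, with log2 ratios between -0.50 and 0.24 in NPMc+ and between -0.51 and 0.17 in Flt3-ITD. In NPMc+/Flt3-ITD against Mx, 14 of the 32 were at least 2-fold lower and 0 higher, with log2 ratios between -2.17 and 0.34. Over all 83 ribosomal protein genes, 36 were lower in that comparison and the median log2 ratio was -0.78.

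Divided by its parent, a retrocopy was at least 2-fold lower in NPMc+ than in Mx for 12 of 35, in Flt3-ITD for 10 of 36 and in the double mutant for 23 of 33. It was at least 2-fold higher for 0, 3 and 0. No ratio of copy to parent was computed for other genes, so no background stands beside these counts. Across the 37 points, Spearman's rho between the log2 ratios of copy and parent was 0.40 in NPMc+, 0.16 in Flt3-ITD and 0.49 in the double mutant. Within each of these correlations the points share their libraries, and copies of one parent share its value.

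**Figure D2:**
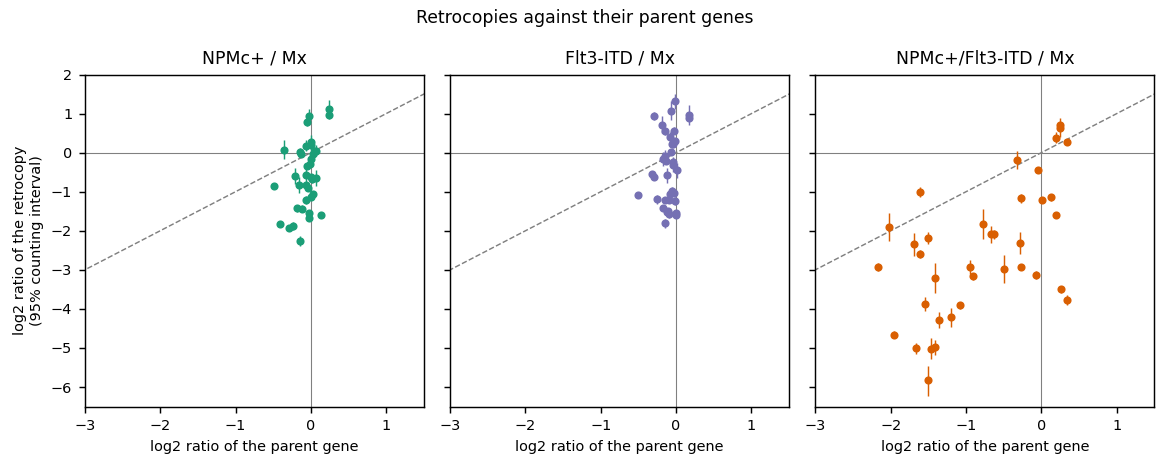
Log2 ratio of each retrocopy (vertical, with exact 95% counting interval) against that of its parent (horizontal) in NPMc+, Flt3-ITD and NPMc+/Flt3-ITD over Mx, with equal ratios on the dashed line. Parents spread narrowly around 0 in the single mutants, while the copies reach -2.25 in NPMc+, -1.81 in Flt3-ITD and -5.83 in the double mutant.

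As a share of the UMIs of copy and parent together, Rps27rt made up 6.09% in NPMc+ (5.95 to 6.23), 6.78% in Flt3-ITD (6.64 to 6.92) and 2.58% in the double mutant (2.43 to 2.74), against 14.7% in Mx (14.6 to 14.9). Its parent stood at 4242, 4995 and 1452 CPM in these mutants, against 5632 in Mx. Rpl37rt made up 3.105%, 3.67% and 0.974%, against 9.11% in Mx. Both shares were ordered like the levels, with the double mutant lowest and Mx highest.

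Rpl36a-ps1 made up 0.926%, 1.26% and 0.200% of its pair, against 3.86% in Mx. Rps6-ps4 went the other way, with 11.6%, 11.6% and 9.90%, against 7.35% in Mx. Rpl3-ps1 hardly moved, with 13.1%, 13.1% and 11.9%, against 12.4% in Mx. Rpl10a-ps1 had the highest share of the 37 in the single mutants, with 15.9%, 16.4% and 10.6%, against 13.6% in Mx. Shares thus differed between copies both in size and in the order of the libraries.

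**Figure D3:**
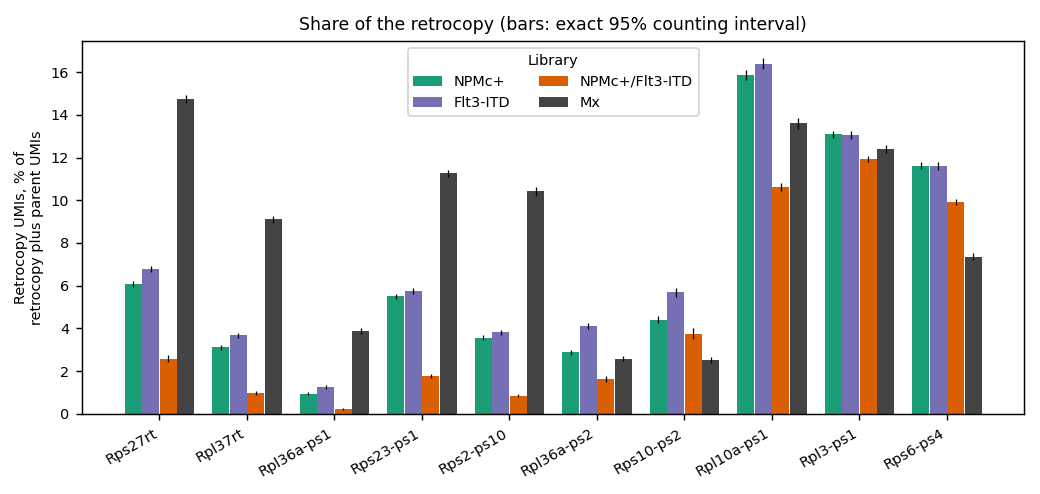
Retrocopy UMIs as a percentage of retrocopy plus parent UMIs for 10 retrocopies in the NPMc+, Flt3-ITD, NPMc+/Flt3-ITD and Mx libraries, with exact 95% counting intervals. Rps27rt reaches 14.7% in Mx and 2.58% in the double mutant, whereas Rps6-ps4 is lowest in Mx at 7.35%.

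Copies of one parent did not always move together. Among the 4 pairs of copies described here, the pair kept its proportion only for Rps6: Rps6-ps4 made up 97.0%, 97.1% and 97.4% of both in NPMc+, Flt3-ITD and NPMc+/Flt3-ITD, against 97.2% in Mx. Rpl36a-ps1 made up 24.0% of the Rpl36a pair in NPMc+ (22.4 to 25.7), 23.0% in Flt3-ITD (21.5 to 24.4) and 10.8% in the double mutant (8.34 to 13.7), against 60.4% in Mx (58.9 to 61.9). Rps10-ps1 made up 62.0%, 55.1% and 54.4% of its pair, against 78.2% in Mx. Rpsa-ps12 made up 76.1%, 69.9% and 61.6%, against 86.5% in Mx. In the last 3 pairs the copy that was larger in Mx had a smaller share in every mutant library. That copy was picked by its level in Mx, the library its share is compared with.

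Uniqueness of sequence was measured as the share of windows of 98 bases in a copy's annotated transcript that occur in no other annotated transcript. It ran from 0 for 7 copies (Rpl10a-ps1, Rpl36a-ps2, Rpl38-ps2, Rps13-ps2, Rps16-ps2, Rps23-ps1 and Rps6-ps4) to 100%, as in Rpl39-ps. The 7 copies with no window of their own still carried UMIs, in sum 1796, 1833 and 1012 CPM in NPMc+, Flt3-ITD and NPMc+/Flt3-ITD, against 1812 in Mx. How reads that match more than 1 gene were counted is not given in the sources used here. Windows were counted over the whole annotated transcript, and those near the 3' end, where the 3' kit reads, were not set apart. Bases beyond the annotated end of a copy were not read. The levels of these 7 and the split between copy and parent are therefore uncertain. This limit also bears on copies with few windows of their own. The unique share was 0.778% in Rpl34-ps1, 4.17% in Rpl10-ps3, 5.21% in Rpl3-ps1, 7.14% in Rps2-ps10 and 10.5% in Rps27rt. The 15 copies with at least 50% unique windows summed to 1420, 1480 and 362 CPM, against 2795 in Mx. At least 2-fold below Mx were 5 of those 15 in NPMc+, 7 in Flt3-ITD and 13 in the double mutant, and 2.23%, 1.74% and 5.74% of all genes. As far above Mx were 1, 1 and 0 of the 15, and 1.78%, 2.38% and 5.42% of all genes. The shares of all genes cover those at 20 CPM in either library of a pair. Not all 15 copies reached that level in every comparison. Of the 7 with no window of their own, 2, 2 and 5 were that far below Mx and 0 above it.

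Across the 37, Spearman's rho between the unique share and the log2 ratio to Mx was -0.13 in NPMc+, -0.11 in Flt3-ITD and -0.06 in the double mutant. Identity to the parent gave -0.01, -0.02 and -0.04, and the length of the copy, which ran from 151 to 1210 bases, gave 0.25, 0.15 and 0.45. Unique share and identity cover the whole copy, not only its 3' end, and what part shared sequence has in the ratios was not tested.

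The ribosomal protein genes were split by the length of their coding sequence, in a comparison chosen after the values were seen. Of the 28 with the shortest coding sequence (75 to 396 bases), 26 were at least 2-fold lower in NPMc+/Flt3-ITD than in Mx, with a median log2 ratio of -1.55. Of the 28 of middle length (399 to 564 bases) 10 were lower, with a median of -0.90, and of the 27 longest (576 to 1257 bases) 0 were, with a median of 0.13. Spearman's rho with coding length over the 83 genes was 0.55 in NPMc+, 0.31 in Flt3-ITD and 0.84 in the double mutant, and with transcript length, the measure used for the copies, 0.37, 0.12 and 0.47. Among genes that encode no ribosomal protein, 18.02% of 444 with at most 396 coding bases were at least 2-fold lower in NPMc+/Flt3-ITD. This compared with 2.59% of 540 of middle length and 2.91% of 5528 longer ones. In the same order, 4.505%, 3.89% and 5.25% were at least 2-fold higher. The median log2 ratios were 0.007, 0.29 and 0.23, beside 0.21 for all genes. The median short gene of this kind was thus near its Mx level, but below the medians of the longer ones and of all genes. What part length has in the retrocopies' ratios was not tested.

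**Figure D4:**
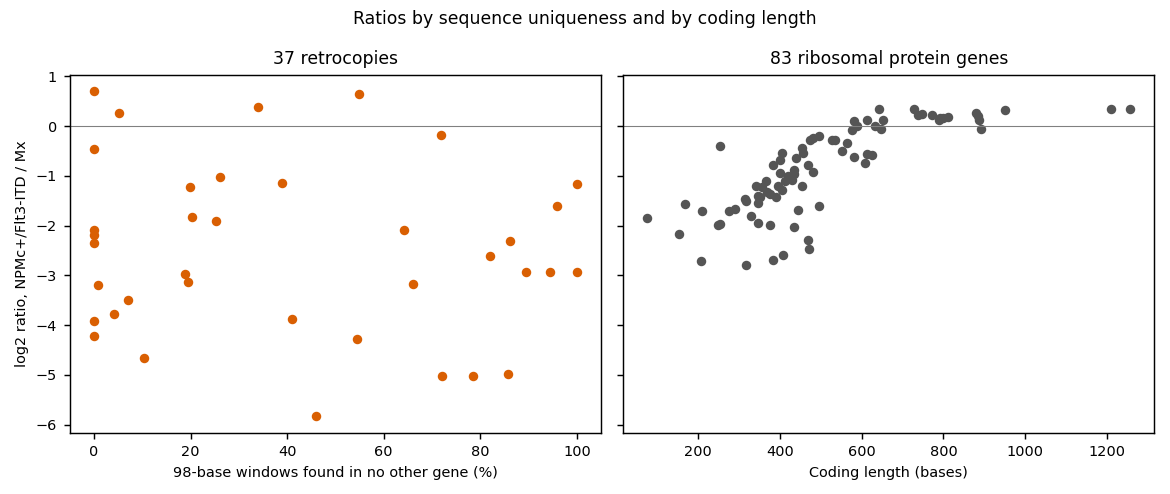
Log2 ratio of NPMc+/Flt3-ITD over Mx (vertical) against the share of unique windows of 98 bases for the 37 retrocopies (left) and against coding length for the 83 ribosomal protein genes (right), 1 point per gene. Spearman's rho is -0.06 on the left and 0.84 on the right, where the shortest genes lie lowest.

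Other processed pseudogenes at the same level, taken as those annotated as such whose symbol did not match the rule, went both ways in the single mutants. What they were copied from was not examined, so ribosomal protein copies under other symbols may be among them. Of 83, 19 were at least 2-fold higher and 12 lower in NPMc+ against Mx, and of 85, 25 were higher and 7 lower in Flt3-ITD. In NPMc+/Flt3-ITD against Mx, 17 of 79 were higher and 34 lower, where 0 of the 33 retrocopies were higher.

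Male and female cells were compared within each library. Cells were taken as male where they had UMIs of Y-linked genes (Ddx3y, Eif2s3y, Kdm5d, Uty) but not of Xist, as female where only Xist was found, and both sexes were present in every library. Rps27rt had 280.4 CPM in 1155 male and 280.7 in 495 female NPMc+ cells, and 351 in 987 male and 375 in 773 female Flt3-ITD cells. It had 38.9 CPM in 2425 male and 37.3 in 179 female NPMc+/Flt3-ITD cells, and 987 in 1218 male and 966 in 583 female Mx cells. For this copy the sexes within a library were far closer than the libraries. Over the 37 copies and 4 libraries, 15 of 148 intervals of the male to female ratio lay off 0. The largest of these 15 were those of Rpsa-ps10, with a log2 ratio of 0.33 in Flt3-ITD (0.10 to 0.55) and of -0.42 in Mx (-0.68 to -0.15), and of Rps10-ps1 in the double mutant, at 0.50 (0.03 to 1.01). For Rpsa-ps10 these were about as large as its differences between the mutants and Mx.

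Among the 37, 0 were at least 2-fold higher or lower in male cells in the NPMc+, Flt3-ITD and Mx libraries, where 0.557%, 0.542% and 0.354% of all genes were higher and 0.476%, 1.07% and 0.212% lower. In NPMc+/Flt3-ITD 1 copy was higher and 0 lower, against 6.15% and 2.55% of all genes. That copy was Rpl36a-ps1, with 50 UMIs in male and 1 in female cells, and its interval held no difference (log2 ratio 1.86, -0.68 to 7.19). The shares of all genes here cover those with at least 50 UMIs in male and female cells together, not those at 20 CPM, and leave out the genes that defined sex. Over the 37 copies, median log2 ratios of male to female cells were -0.04, -0.03, 0.06 and -0.05 in NPMc+, Flt3-ITD, NPMc+/Flt3-ITD and Mx.

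**Figure D5:**
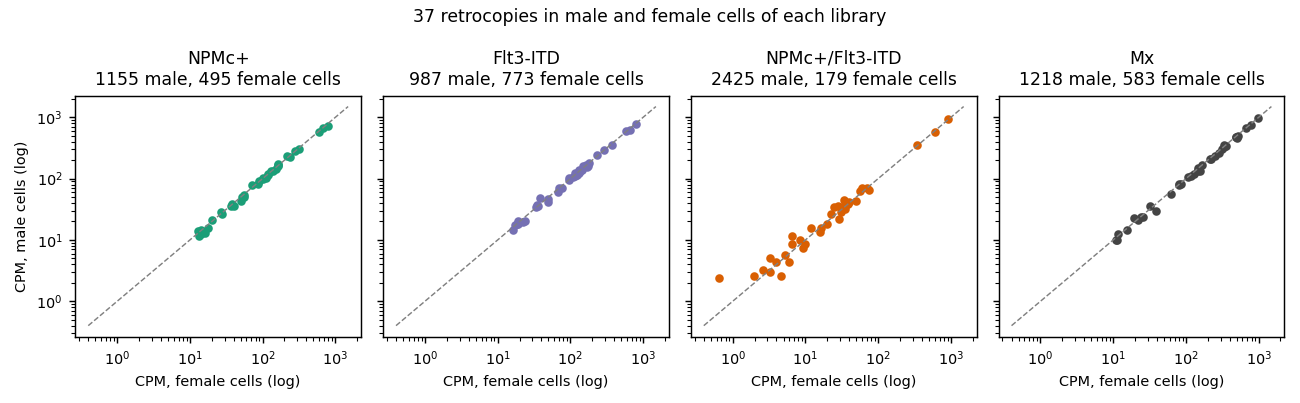
Level of each of the 37 retrocopies in male cells (vertical) against female cells (horizontal) of the NPMc+, Flt3-ITD, NPMc+/Flt3-ITD and Mx libraries, in CPM on log axes, with equal levels on the dashed line. Points follow the line in every library, with Rpl36a-ps1 in NPMc+/Flt3-ITD, resting on 1 female UMI, furthest from it.

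Detection over cells was measured as the expected share of cells with at least 1 UMI when each cell is thinned to 5000 UMIs, shallower cells being left out. For Rps27rt it was 75.1% of 1990 NPMc+, 84.8% of 2014 Flt3-ITD and 17.8% of 2464 double-mutant cells, against 98.8% of 1969 Mx cells, and without thinning 89.4%, 90.1% and 26.3%, against 97.6%. For Rps6-ps4 the thinned shares were 96.3%, 95.7% and 93.7%, against 82.0% in Mx, and the unthinned ones 96.5%, 94.6% and 90.7%, against 86.7%. Every cell makes ribosomes, so no cell type in the sort gave a background share from free RNA. The top 1% of cells held 3.99%, 3.37% and 8.58% of the Rps27rt UMIs in NPMc+, Flt3-ITD and NPMc+/Flt3-ITD, against 2.995% in Mx, so the UMIs were not held by a few cells.

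Within 100 kb of 23 of the copies lay 47, 47 and 48 genes that reached 20 CPM in NPMc+, Flt3-ITD and NPMc+/Flt3-ITD or in Mx. Of these, 1, 2 and 1 were at least 2-fold higher and 1, 2 and 2 lower than in Mx, near the shares of all genes given above, with median log2 ratios of 0.03, -0.04 and 0.14. Beside Rpl36a-ps1, Mzt1, which encodes a component of the gamma-tubulin ring complex, had 99.3, 111 and 139.8 CPM, against 97.2 in Mx. By contrast, Sgms1 near Rpl9-ps6 was lower in each mutant like that copy, with 76.3, 48.4 and 30.5 CPM, against 102.6 in Mx. Of the 37 copies, 20 overlapped another annotated gene, 7 of them on the same strand.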

How the data were processed

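UMI count tables of 4 libraries, deposited as whole numbers per gene and barcode, were used as raw counts. Per the submitters' processing notes, STARsolo in STAR 2.7.0c and mm10 were used, and the treatment of reads with more than 1 match is not given in the sources used here. Members, lists and the limits were chosen with earlier results of these data known. The best parent by sequence, pairs of copies, coding length and other processed pseudogenes were added after values were seen.

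Barcodes with at least 1000 UMIs, 500 genes and at most 10% mitochondrial UMIs were kept, 10608 of 11407, holding 94962872 UMIs. Doublets were not called. UMIs summed over cells and scaled to a library total of 1000000 (CPM) were compared between libraries by their ratio with an exact conditional binomial (Clopper-Pearson) 95% interval. Intervals cover counting error only. With 1 library per genotype there was no test. A retrocopy was counted at 20 CPM in either library and a 2-fold difference, and every copy at 20 CPM in any library was named, apart from results that are not reported here. Names and transcripts came from GENCODE M21, in which all 223 were found. Copies were aligned with Biopython 1.88. The ratio script was tested on simulated counts. Alternatives used TMM factors from edgeR 4.0.16, median-of-ratios factors, other cell filters, floors, folds and cell sets.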

Additional observations from a re-analysis of the deposited data

Results flagged for a closer look

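For 4 retrocopies, 1 mutation went with a higher level when it was alone and with a lower level when the other mutation was present, with both counting intervals off 0 and both differences at least 1.5-fold. The 1.5-fold limit was added while the data were being analysed, and with 1 library per genotype the difference between the effects was not tested. The same was met by 2 of the 37 for NPMc+ and 4 of the 37 for Flt3-ITD, against 1% and 0.832% of all 7090 genes at 20 CPM in any library. The median log2 ratio of the retrocopies in the double mutant was -2.13 against NPMc+ and -2.19 against Flt3-ITD, so these counts cannot be read alone. Rpl18-ps2 had a log2 ratio of 0.93 in NPMc+ against Mx and of -1.50 in NPMc+/Flt3-ITD against Flt3-ITD, and of 1.31 in Flt3-ITD against Mx and of -1.11 in NPMc+/Flt3-ITD against NPMc+. Rps10-ps2 had 0.79 in NPMc+ against Mx and -1.95 in NPMc+/Flt3-ITD against Flt3-ITD, and 0.94 in Flt3-ITD against Mx and -1.80 in NPMc+/Flt3-ITD against NPMc+. For Rps19-ps6 the log2 ratio was 0.72 in Flt3-ITD against Mx and -1.97 in NPMc+/Flt3-ITD against NPMc+. For Rps27a-ps2 it was 1.07 in Flt3-ITD against Mx and -2.01 in NPMc+/Flt3-ITD against NPMc+. Rps19-ps6 and Rps27a-ps2 reached 20 CPM only in Flt3-ITD, the library in which they were higher, so the limit itself favours their being counted.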

How the results depend on the processing

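No paired analysis was possible because each genotype has 1 library. Over 15 alternative settings, lower retrocopies numbered 10 to 16 in NPMc+ against Mx apart from the 1.5-fold limit, which gave 20, where the limit of 2-fold gave 12. They numbered 11 to 17 in Flt3-ITD against Mx and 24 to 42 in NPMc+/Flt3-ITD against Mx. Counts of higher ones were small and moved. In Flt3-ITD against Mx the 2 became 5 with TMM, 5 with median-of-ratios factors, 6 at a floor of 5 CPM, 5 at 1.5-fold, 1 without the top 1% of cells of each gene, 0 at a floor of 50 CPM and 0 without cells of other-lineage markers, which left 71 to 282 cells a library. In NPMc+ against Mx the 1 became 3 with TMM, 3 with median-of-ratios factors, 2 at a floor of 5 CPM, 4 at 1.5-fold, 0 at a floor of 50 CPM and 0 in female cells. In NPMc+/Flt3-ITD against Mx the 0 became 2 at a floor of 5 CPM and 1 at 1.5-fold. A lower floor or fold admits more genes by construction, and otherwise the cause was not tested. TMM moved the median of all genes to 0.15 in NPMc+ and 0.09 in Flt3-ITD against Mx. Of the 37 copies, 13, 16 and 31 were past 2-fold in the 3 comparisons when those under 20 CPM in both libraries of a pair were counted too, which adds Rps19-ps6 and Rps27a-ps2 in NPMc+/Flt3-ITD, and none of these changed direction in the 12 settings that alter cells or scaling. Among copies named here, calls were lost as follows. With TMM or median-of-ratios factors these were Rps23-ps1 in NPMc+ and Rpl21-ps8 and Rpsa-ps12 in Flt3-ITD. In female cells they were Rps6-ps3 in NPMc+, Rpl21-ps8 in Flt3-ITD and Rpl14-ps1 in NPMc+/Flt3-ITD. Without cells of other-lineage markers they were Rps23-ps1, Rps26-ps1 and Rps6-ps3 in NPMc+, Rpl18-ps2 and Rps27a-ps2 in Flt3-ITD, and Rps10-ps2 and Rps19-ps6 in NPMc+/Flt3-ITD. Rps10-ps2 in NPMc+/Flt3-ITD was also lost in male cells, with cells weighted equally and without the top 2% of cells by UMIs.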
